A study of Mus musculus with 8 samples.

Results

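*Gata4*, *Gata5* and *Gata6* encode the GATA factors of endoderm and heart, and their transcripts were followed in sorted intestinal stem cells that carried or lacked the histone methyltransferase Mll1. The members were the 3 genes with the symbols *Gata4*, *Gata5* and *Gata6* among 53801 genes of the count table, and all 3 were among the 16445 genes that passed the filter on low counts. They were selected on measured values of these libraries, with the contrast of genotypes known, so that contrast is a description for them and no test is attached to it.

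All mice carried the Lgr5-EGFP-IRES-CreERT2 allele, which drives a tamoxifen-inducible Cre recombinase and green fluorescent protein in Lgr5+ stem cells, and a β-catenin allele that loses exon 3 on recombination and gives the stabilised protein (β-cat GOF). The 4 test libraries came from mice with both Mll1 alleles floxed (β-cat GOF; Mll1-/-, below Mll1-/-), and the 4 control libraries from mice with 1 floxed allele (β-cat GOF; Mll1+/-, below Mll1+/-), so the controls also carried activated β-catenin and lost 1 Mll1 allele where Cre acted. Mice were 4 to 6 weeks old, received 50 mg tamoxifen per kg on 3 days, and Lgr5-GFP+ cells were sorted 10 days after induction for Smart-seq2 RNA sequencing. Cells sorted for GFP express the Lgr5 allele that carries Cre, but the share of them that had recombined the floxed alleles was not measured here. Mice of both sexes were used without a sex label on the libraries.

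GATA factors bind the DNA word GATA through a pair of zinc fingers and switch on genes of the tissue in which they are made. GATA4 is known for marking the duodenum and jejunum and fading towards the ileum, where its absence goes with ileal gene use, while GATA6 is present along the whole length of the small intestine and in its crypts, and GATA5 is also made in gut epithelium. In the heart and in early endoderm the same proteins act with FOG cofactors, Smad proteins and other lineage factors.

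The coding DNA of the second zinc finger is shown for *Gata4* and *Gata5* because the zinc fingers are the conserved part of the family. It lay in exon 4 of the transcript Gata4-201 (GRCm38, chr14:63203683-63203757, minus strand) and in exon 3 of Gata5-201 (chr2:180328331-180328405, minus strand), and the capitals mark the bases that differ between the pair.
Gata4: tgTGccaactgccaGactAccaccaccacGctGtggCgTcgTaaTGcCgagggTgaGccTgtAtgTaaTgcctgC
Gata5: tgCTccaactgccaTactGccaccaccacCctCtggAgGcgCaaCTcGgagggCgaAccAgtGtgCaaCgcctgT
Of the 75 bases 19 differed, which left 74.7% identity. *Gata6* matched *Gata4* at 81.3% and *Gata5* at 69.3% of the same bases. Over the whole transcripts the longest run of identical bases was 26 for *Gata4* and *Gata5*, 18 for *Gata4* and *Gata6*, and 15 for *Gata5* and *Gata6*. The encoded proteins have 442 (GATA4), 404 (GATA5) and 589 (GATA6) residues.

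The 8 libraries held 14468751 to 16847793 counts on genes, of which 17.1 to 30.1% were mitochondrial. *Kmt2a*, the gene of Mll1, was not lower in the Mll1-/- libraries, at 53.5 to 78.5 CPM against 48.9 to 64.9 CPM, where CPM are counts per 1000000 counts of the TMM-scaled library (log2 fold change 0.24, SE 0.17, adjusted p = 0.710, edgeR quasi-likelihood test), and counts over the whole gene do not single out the floxed exons. Library J_7135 of the Mll1-/- group stood apart. Its highest Spearman correlation with another library over the tested genes was 0.909, against 0.947 to 0.966 for the other 7, and it held both *Xist*, at 208 CPM, and the Y-linked transcript *Eif2s3y*, at 99.5 CPM, whereas each of the others held only 1 of them above 3 CPM. The fold change of *Gata4* and the list medians that rest on it are also given without it. The Mll1-/- group otherwise had 2 libraries with Y-linked transcripts and 1 with *Xist*, the Mll1+/- group 1 and 3.

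*Gata4* was the member with separate groups. Its 3904 exonic bases lie at chr14:63198922-63271692 on the minus strand of mm10. In the Mll1-/- libraries *Gata4* reached 6.20 (J_7075), 4.52 (J_7096), 19.4 (J_7135) and 3.55 CPM (J_7136). In the Mll1+/- libraries it reached 35.5 (J_7079), 36.3 (J_7100), 29.3 (J_7134) and 37.8 CPM (J_7139). All 4 Mll1-/- libraries were below all 4 Mll1+/- libraries, and library J_7135 lay between its own group and the controls. The means were 8.42 ± 7.41 CPM and 34.7 ± 3.74 CPM (SD, n = 4 each), a 4.12-fold difference, and the fitted log2 fold change was -2.04. These values rest on 54 to 359 counts in Mll1-/- and 365 to 594 counts in Mll1+/- libraries, well above the floor of 3 counts.

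Without library J_7135 the Mll1-/- mean of *Gata4* was 4.75 ± 1.34 CPM (SD, n = 3), the ratio of the means 7.30-fold and the fitted log2 fold change -2.86. Library J_7135 stood at 55.9% of the Mll1+/- mean and the 3 others together at 13.7%, so this library had 4.08 times the level of its group. With or without it, every Mll1-/- library lay below every control. The library numbers fall into a series from J_7075 to J_7100 and another from J_7134 to J_7139, each with 2 libraries per genotype, and within them the log2 fold change of *Gata4* was -2.74 and -1.55. With the balance of *Xist* and Y-linked transcripts as a covariate it was -1.96. The coefficient of variation of *Gata4* was 10.8% in Mll1+/- and 88.0% in Mll1-/- libraries, or 28.2% without J_7135.

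*Gata5* did not separate the genotypes. Its 3277 exonic bases lie at chr2:180325133-180334699 on the minus strand. In the Mll1-/- libraries *Gata5* was counted at 36.5 (J_7075), 21.9 (J_7096), 30.9 (J_7135) and 25 CPM (J_7136), and in the Mll1+/- libraries at 29.3 (J_7079), 28.1 (J_7100), 16.1 (J_7134) and 31.1 CPM (J_7139). The ranges overlapped over most of their width, and the lowest library of all, J_7134, was a control. The means were 28.5 ± 6.46 CPM and 26.2 ± 6.81 CPM (SD, n = 4 each), with a log2 fold change of 0.12 that was 0.03 and 0.23 within the series of library numbers. Leaving out 1 library at a time moved it between -0.05 and 0.23, so no sign can be given to it.

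*Gata6* was the most abundant member, and its ranges overlapped. Its 3194 exonic bases lie at chr18:11052510-11085635 on the plus strand. In the Mll1-/- libraries *Gata6* reached 118 (J_7075), 97.2 (J_7096), 83.7 (J_7135) and 90.7 CPM (J_7136), and in the Mll1+/- libraries 115 (J_7079), 141 (J_7100), 95.0 (J_7134) and 111 CPM (J_7139). The upper Mll1-/- libraries lay within the control range, and the 2 lowest lay under it. The means were 97.5 ± 15.0 CPM and 116 ± 19.1 CPM (SD, n = 4 each), and the log2 fold change was -0.25, the same within both series of library numbers and between -0.36 and -0.14 when 1 library at a time was left out.

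**Figure D1:**
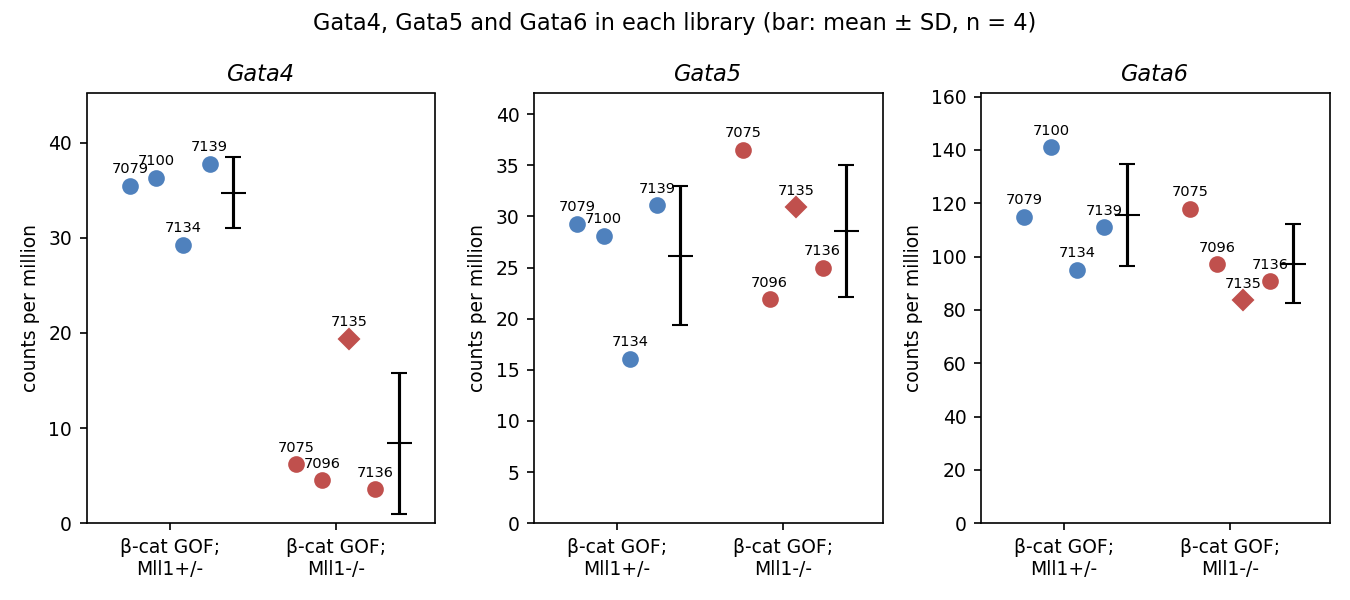
CPM (y axis, from 0) of *Gata4*, *Gata5* and *Gata6* in the 4 Mll1+/- libraries (blue) and the 4 Mll1-/- libraries (red), each labelled by its number, with library J_7135 as a diamond and the bar giving mean ± SD. *Gata4* has no overlap between genotypes, from 3.55 to 19.4 CPM against 29.3 to 37.8 CPM, while *Gata5* and *Gata6* overlap.

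Across all tested genes, edgeR called 14 of 16445 genes between genotypes at an adjusted p under 0.1, or 0.0851%, of which 8 were higher and 6, or 0.0365%, lower in Mll1-/-. Without library J_7135 edgeR called 0.262% of all tested genes, and DESeq2 on all libraries called 2.74% of its tested genes. Calls of the 3 GATA genes are not given, because they were chosen with this contrast known. Groups that did not overlap, with Mll1-/- lower, were found for 1 of the 3 and for 2.94% of all tested genes. For the same reason nothing is read from this count. Reads came from sorted cells in bulk, in which fewer cells with a transcript and less transcript per cell cannot be told apart.

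**Figure D2:**
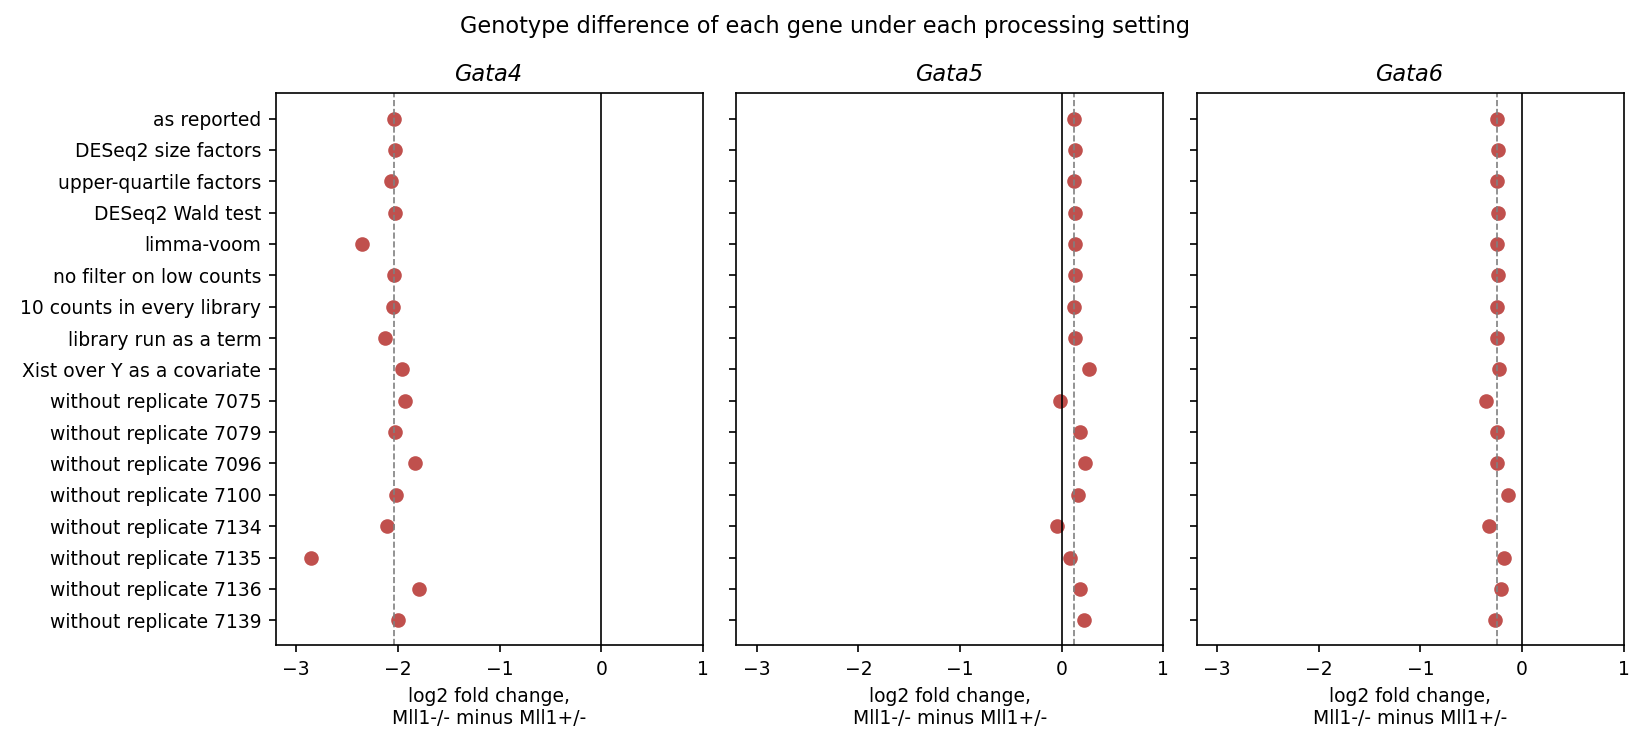
Log2 fold change (x axis, Mll1-/- minus Mll1+/-) of each gene under the reported setting and 16 alternatives (y axis), with the dashed line at the reported value and the solid line at 0. *Gata4* stays between -2.86 and -1.79, *Gata6* between -0.36 and -0.14, and *Gata5* lies on both sides of 0.

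Compared per length within a library, as CPM divided by exonic length in kilobases (RPKM), *Gata6* was the leading transcript in both genotypes. *Gata6* stood above *Gata5* by 2.00 ± 0.35 on the log2 scale (SD, n = 8), in 8 of 8 libraries (exact two-sided sign-flip permutation test, p = 0.00781, the smallest value that 8 libraries can give, and 0.00781 after Benjamini-Hochberg adjustment over the 2 pairs). *Gata4* stood under *Gata6* by a difference of -3.04 ± 1.33 (SD, n = 8), also in 8 of 8 libraries. No p-value is given for this pair. It would include the Mll1-/- libraries, whose low *Gata4* belongs to the contrast the gene was chosen on. The log2 ratio of *Gata4* to *Gata6* was -2.02 ± 0.17 in Mll1+/- and -4.16 ± 1.19 in Mll1-/- libraries (SD, n = 4 each), so most of the pooled spread is the genotype difference for which *Gata4* was chosen. In Mll1+/- cells the mean levels were 36.2 ± 5.97 RPKM for *Gata6*, 8.89 ± 0.959 RPKM for *Gata4* and 7.99 ± 2.08 RPKM for *Gata5* (SD, n = 4). *Gata4* and *Gata5*, neighbours in this order, did not differ beyond their spread there, with a log2 ratio of 0.03 to 0.61 per library. In Mll1-/- cells the order was *Gata6* at 30.5 ± 4.69 RPKM, *Gata5* at 8.71 ± 1.97 RPKM and *Gata4* at 2.16 ± 1.90 RPKM (SD, n = 4), and the log2 ratio of *Gata4* to *Gata5* ran from -3.07 to -0.92.

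The make-up of the summed GATA level shows the same in shares. *Gata4* gave 16.9 ± 1.35% of the summed RPKM of the 3 genes in Mll1+/- and 5.23 ± 4.69% in Mll1-/- libraries, where the single values were 3.19, 3.02, 12.3 and 2.46% for J_7075, J_7096, J_7135 and J_7136. *Gata6* gave 68.2 ± 3.17% and 73.9 ± 6.55%, and *Gata5* gave 14.9 ± 2.67% and 20.9 ± 2.54% (SD, n = 4 each). The summed level was 53.1 ± 8.20 RPKM in Mll1+/- and 41.4 ± 5.79 RPKM in Mll1-/- libraries. Among the 16445 tested genes ranked by mean RPKM, *Gata6* held place 1696 in Mll1+/- and 1893 in Mll1-/-, *Gata5* place 5291 and 5060, and *Gata4* place 4935 and 10585.

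**Figure D3:**
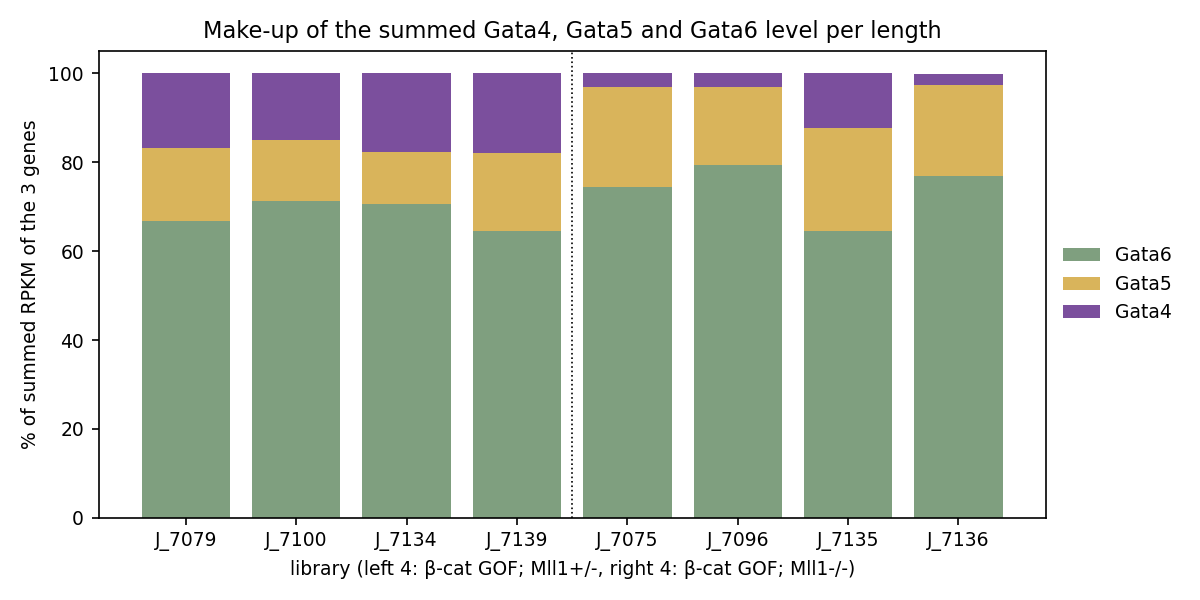
Share (y axis, % of summed RPKM) of *Gata6*, *Gata5* and *Gata4* in each library (x axis), with the 4 Mll1+/- libraries on the left of the dotted line and the 4 Mll1-/- libraries on the right. The *Gata4* share is 15.0 to 17.9% on the left and 2.46 to 12.3% on the right, with library J_7135 the highest on the right.

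The 3 transcripts were also compared across libraries after each value was centred on its genotype mean, since *Gata4* fell into clusters by genotype and a pooled correlation would only restate them. The centred Pearson r of *Gata4* and *Gata6* was -0.18 (exact permutation within genotype, p = 0.696) and Spearman's rho was 0.10 (p = 0.839, exact permutation), with 0.696 and 0.839 after adjustment over the 3 pairs of members. It was -0.51 without the 2 libraries farthest from the *Gata4* median, and 0.76 without library J_7135 (p = 0.0556, exact permutation), so the sign of r rests on that library, and rho ran from -0.46 (without J_7134) to 0.79 (without J_7135) with 1 library left out. *Gata4* and *Gata5* gave r = 0.41 (exact permutation p = 0.278, adjusted 0.417) and rho = 0.50 (exact permutation p = 0.208, adjusted 0.312), with r = 0.02 without the 2 farthest libraries. Without library J_7135 these became r = 0.76 (exact permutation p = 0.0556) and rho = 0.86 (exact permutation p = 0.0625), and rho was 0.14 without J_7136. *Gata5* and *Gata6* gave r = 0.59 (exact permutation p = 0.189, adjusted 0.417) and rho = 0.62 (exact permutation p = 0.153, adjusted 0.312), with r = 0.41 without the 2 farthest. Without library J_7134 they were r = 0.27 and rho = -0.07, and rho was -0.04 without J_7075, so the sign of this rho rests on either library.

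The other genes of the GATA family were nearly silent. *Gata1* and *Gata2*, the erythroid and blood stem cell factors, had 0 to 6 and 0 to 3 counts per library. *Gata3*, a T cell and skin factor, had 6 to 11 counts in every library, or 0.379 to 0.773 CPM. *Zglp1*, a germ cell relative, had at most 2 counts. *Trps1*, an atypical GATA repressor, was tested and ran from 0.174 to 1.89 CPM in Mll1-/- and from 0.581 to 2.45 CPM in Mll1+/- libraries (log2 fold change -0.41, SE 0.77, adjusted p = 0.910). The GATA-domain proteins of the NuRD repressor complex and its kin, *Gatad1*, *Gatad2a* and *Gatad2b*, had log2 fold changes of 0.16, -0.23 and 0.11. Of the 8 relatives 4 were tested and 0 were called by edgeR or DESeq2, against 0.0851% and 2.74% of all genes they tested. At an unadjusted p under 0.05 there were 0, against 9.15% of all tested genes. The median log2 fold change of the relatives was -0.06 against 0.008, and 0.08 without library J_7135.

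Among 16 genes of known GATA partners, 15 were tested, 5 had lower and 10 higher values in Mll1-/-, with a median log2 fold change of 0.21 against 0.008 over all tested genes. That median was 0.19 without library J_7135, and -0.09 and 0.22 within the series of library numbers. Of the 15, 1 was called by edgeR and the same 1 by DESeq2, against 0.0851% and 2.74% of all genes they tested. At an unadjusted p under 0.05 there were 3, 1 lower and 2 higher, against 9.15% of all tested genes. In limma-voom 0 genes of any kind were called, which holds for every list below. The called gene was *Foxa1*, the forkhead pioneer factor of endoderm, which fell by 1.99 on the log2 scale (SE 0.25, adjusted p = 0.0918, edgeR). *Foxa1* had 13.4 (J_7075), 8.57 (J_7096), 6.81 (J_7135) and 7.49 CPM (J_7136), against 32.3 to 43.7 CPM in Mll1+/- libraries. *Foxa1* was thus lowest in library J_7135, the library in which *Gata4* was highest of its group, and without that library its log2 fold change was -1.87. Its call was lost when any of 6 of the 8 libraries was left out (it held without J_7075 and without J_7135), with library number as a term, with sex-linked transcripts as a covariate or in limma-voom.

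The related factors *Foxa2* and *Foxa3* had positive values that did not pass the threshold. *Foxa2* gave a log2 fold change of 0.48 (SE 0.42). *Foxa3* was 20.6 to 33.7 CPM in Mll1-/- against 16.8 to 26.3 CPM in Mll1+/- libraries (log2 fold change 0.53, SE 0.23, adjusted p = 0.536). *Smarca4*, the ATPase of the BAF remodelling complex, did not overlap between genotypes, at 79.7 to 171 CPM against 65.7 to 73.5 CPM (log2 fold change 0.67, SE 0.23, adjusted p = 0.449), as did 3.34% of all tested genes with Mll1-/- higher, and its highest value was in library J_7135. The FOG cofactor *Zfpm1* had log2 fold change 0.26 (SE 0.34), and *Zfpm2* had a single count in all libraries together. *Hnf4a*, the nuclear receptor that works with GATA4 on enterocyte genes, was at 121 to 272 CPM against 176 to 215 CPM (log2 fold change -0.10, SE 0.22). The caudal factor *Cdx2* gave -0.27 (SE 0.46), and neither had an adjusted p under 0.1.

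Genes that mark the proximal small intestine were described next, because GATA4 is known as a factor of jejunal identity. Of the 12 genes 10 were tested and all 10 had negative log2 fold changes, as had 49.2% of all tested genes. Their median was -0.99 against 0.008 over all tested genes. *Slc40a1* was near 0 (-0.06, SE 0.95, and 0.35 without library J_7135), and *Mttp* gave -0.22 (SE 0.26). With library number as a term, or with the balance of *Xist* and Y-linked transcripts as a covariate, 9 of the 10 were negative. By edgeR 0 were called and by DESeq2 3, where DESeq2 called 2.74% of all genes it tested. At an unadjusted p under 0.05 there were 5, all lower in Mll1-/-, where 9.15% of all tested genes had such a p, and 2 did not overlap between genotypes with Mll1-/- lower, as did 2.94% of all tested genes. The median was -1.28 without library J_7135 and -1.05 and -0.84 within the series of library numbers, and 1 of these genes, *Onecut2*, was called by DESeq2, with stricter or no filtering, and without library J_7135.

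*Onecut2*, a cut-homeodomain factor of the duodenum, had 38.2 (J_7075), 50.4 (J_7096), 83.0 (J_7135) and 33.4 CPM (J_7136) (log2 fold change -1.70, SE 0.30, adjusted p = 0.139). In the Mll1+/- libraries *Onecut2* reached 192 (J_7079), 184 (J_7100), 111 (J_7134) and 180 CPM (J_7139). The genotypes did not overlap, and J_7135 was again the highest Mll1-/- library. *Apoa1*, the major apolipoprotein of HDL, ranged from 10.2 to 16.2 CPM against 24.4 to 37.3 CPM and did not overlap either (log2 fold change -1.16, SE 0.23, adjusted p = 0.166). *Fabp1*, the fatty acid binding protein of proximal enterocytes, was at 1.65, 0.695, 7.25 and 3.35 CPM in J_7075, J_7096, J_7135 and J_7136 and at 6.76 to 32.5 CPM in Mll1+/- libraries, an overlap by library J_7135 (log2 fold change -2.41, SE 0.71, adjusted p = 0.371). *Lct*, the lactase gene, was under the filter with 0 to 11 counts against 3 to 17 counts.

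The windows before 3 of these genes are shown for the GATA words in them, with the capitals marking the word AGATAA on either strand, where the first letter may also be T and the last may also be G (RefSeq, GRCm38.p6). The *Lct* window is chr1:128328382-128328441 on the minus strand, the *Apoa1* window chr9:46228389-46228448 and the *Rbp2* window chr9:98490472-98490531, both on the plus strand.
Lct: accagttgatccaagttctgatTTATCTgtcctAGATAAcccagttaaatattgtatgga
Apoa1: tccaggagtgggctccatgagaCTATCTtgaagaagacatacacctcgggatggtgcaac
Rbp2: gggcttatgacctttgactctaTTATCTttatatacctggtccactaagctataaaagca
The words began 101 and 90 bases before the *Lct* start, 219 bases before *Apoa1* and 43 bases before *Rbp2*, a retinol binding protein gene. *Apoa1* held another word 15 bases after its start, outside the window shown. Of the 12 proximal genes 8 had an entry in the promoter table of 300 bases per start, and 3 of the 8 held a word, as did 3 of 7 distal genes with an entry and 29.8% of all 32851 promoters. *Fabp1* and *Apob* had entries without a word, and *Onecut2*, *Gata4* and *Gata6* were not in the table. The words are a description of these letters only.

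Genes of the distal intestine showed no common direction. Of 11 genes 8 were tested, 3 with negative and 5 with positive log2 fold changes and a median of 0.16. By edgeR or DESeq2 0 were called, against 0.0851% and 2.74% of all genes they tested, and 1 had an unadjusted p under 0.05, against 9.15%. Without overlap, 2 were higher in Mll1-/-, *Cubn* and *Fabp6*, against 3.34% of all tested genes. *Cubn*, the cubilin receptor of the ileum, was at 6.43 to 14.9 CPM in Mll1-/- and 0.718 to 5.77 CPM in Mll1+/- libraries (log2 fold change 1.71, SE 0.65, adjusted p = 0.486). *Fabp6*, the ileal bile acid binding protein, was at 1.25 to 2.97 CPM against 0.562 to 1.20 CPM (log2 fold change 1.07, SE 0.49, adjusted p = 0.557). *Slc10a2*, the ileal bile acid transporter, was at 0.131 to 2.01 CPM against 0 to 1.20 CPM (log2 fold change 1.98, SE 1.31, adjusted p = 0.694). Counts of the last 2 were low in every library, and *Car1*, a colonic carbonic anhydrase, had 0 counts in all 8.

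**Figure D4:**
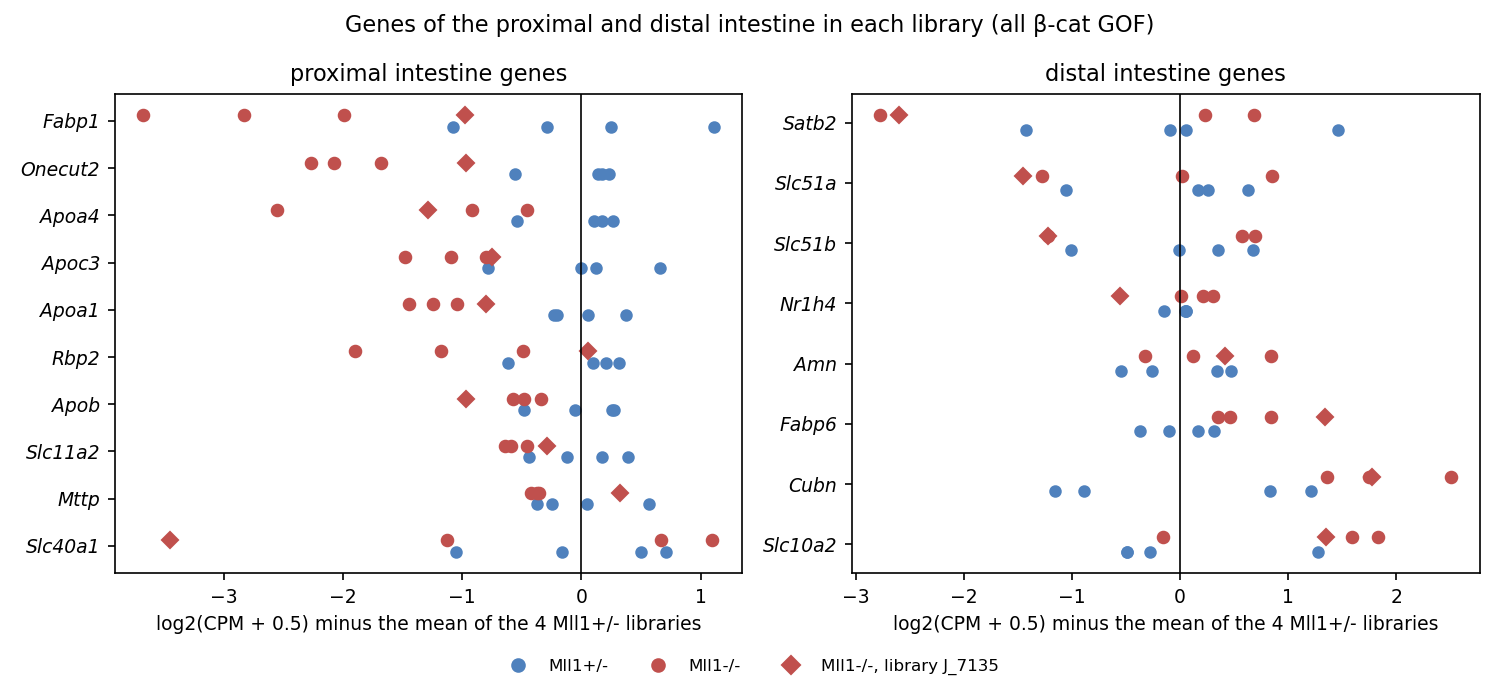
Level of each tested proximal (left) and distal (right) gene in each library as log2(CPM + 0.5) minus the mean of the 4 Mll1+/- libraries (x axis), with Mll1+/- libraries in blue, Mll1-/- in red and library J_7135 as a diamond. All 10 proximal genes have a negative fitted fold change, *Slc40a1* one near 0 (-0.06), and 2 of them, *Onecut2* and *Apoa1*, have no overlap. Of the 8 distal genes 5 have a positive fitted value.

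BMP ligands are known to act on GATA genes, and BMP signalling opposes Wnt signalling along the crypt. Of 20 genes of the pathway 16 were tested, 7 with negative and 9 with positive log2 fold changes, a median of 0.02, and 0 called by edgeR, with 4 at an unadjusted p under 0.05 (9.15% of all tested genes) and 2 called by DESeq2 (2.74% of all genes it tested). Within the series of library numbers the median of the tested BMP genes was 0.27 and -0.23. Without overlap between genotypes, 4 were higher and 1 lower in Mll1-/-, against 3.34% and 2.94% of all tested genes. The ligand *Bmp4* was under the filter, with 38, 7, 0 and 24 counts in J_7075, J_7096, J_7135 and J_7136 and 0 to 11 counts in Mll1+/- libraries. The ligand *Bmp7* was at 19.2 to 30.2 CPM against 9.56 to 19.1 CPM (log2 fold change 0.69, SE 0.26, adjusted p = 0.483). The receptor gene *Bmpr2* was the 1 that did not overlap with Mll1-/- lower, at 4.87 to 52.9 CPM against 56.2 to 67.7 CPM (log2 fold change -0.90, SE 0.55, adjusted p = 0.659, and -0.53 without library J_7135, its lowest). The receptor genes *Acvr1* and *Bmpr1a* overlapped, with log2 fold changes of -1.04 (SE 0.50) and -0.68 (SE 0.31). The signal-transducing Smad gene *Smad5* was at 32.3 to 53.2 CPM against 17.7 to 30.6 CPM (log2 fold change 0.62, SE 0.24, adjusted p = 0.486). The inhibitory Smad gene *Smad7* was at 10.2 to 13.1 CPM against 5.88 to 7.90 CPM (log2 fold change 0.83, SE 0.23, adjusted p = 0.328). *Id4*, a target gene that encodes an inhibitor of helix-loop-helix factors, was at 2.33 to 7.16 CPM against 0.299 to 1.55 CPM (log2 fold change 2.26, SE 0.61, adjusted p = 0.321). *Bmp7*, *Smad5*, *Smad7* and *Id4* were the 4 without overlap in this direction, while the abundant targets *Id1*, *Id2* and *Id3* gave -0.23, 0.03 and -0.04.

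Genes that GATA4 is known to control outside the gut were mostly silent. Of 13 genes 3 passed the filter, 1 with a negative and 2 with positive values, and 0 were called by edgeR, while DESeq2 called 1, *Sox17*, the single one with an unadjusted p under 0.05. Over all tested genes these shares were 0.0851%, 2.74% and 9.15%. *Sox17*, an endoderm factor, had 0.472 (J_7075), 0 (J_7096), 0.0541 (J_7135) and 0.263 CPM (J_7136) against 2.74 to 4.89 CPM in Mll1+/- libraries (log2 fold change -4.27, SE 0.86, adjusted p = 0.195). The groups did not overlap, and library J_7135 was as low as its group, as it was for *Foxa1*. The cardiac troponins *Tnnt2* and *Tnni3* gave 1.26 (SE 0.74) and 1.43 (SE 1.42) at no more than 5.14 CPM, and the median of the 3 tested genes, 1.26, became -0.21 without library J_7135. The cardiac factor *Nkx2-5* had a single count in all libraries together.

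The genes around the 3 loci are described next. Within 200 kb of *Gata4* there were 15 other genes, of which 2 were tested, too few to tell whether *Gata4* differed alone. Of these 2, 0 were called by edgeR or DESeq2 and 1, *Fdft1*, had an unadjusted p under 0.05. Over all tested genes the shares were 0.0851%, 2.74% and 9.15%. *Fdft1*, the squalene synthase gene 19344 bases away, was at 55.3 to 66.4 CPM in Mll1-/- and 33.6 to 58.1 CPM in Mll1+/- libraries (log2 fold change 0.50, SE 0.19, adjusted p = 0.486). *Ctsb*, the cathepsin B gene 52999 bases away, gave -0.19 (SE 0.19, adjusted p = 0.813). The rest, among them *Neil2*, the nearest at 5066 bases, the B cell kinase gene *Blk* and a group of defensin genes, had at most 20 counts in any library. Neither tested neighbour of *Gata4* was lower in all Mll1-/- libraries.

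Around *Gata5* there were 14 other genes, 9 tested and 0 called by edgeR or DESeq2, with 1, *Adrm1*, at an unadjusted p under 0.05. Over all tested genes the same shares were 0.0851%, 2.74% and 9.15%. Log2 fold changes ran from -0.18 for *Osbpl2* to 0.81 for *Adrm1* (SE 0.35, adjusted p = 0.538, edgeR). The antisense gene *Gata5os* covers 258 of the 3277 exonic bases of *Gata5* (7.87%), and since the reads were counted without strand, reads there cannot be assigned to either. *Gata5os* itself had 0 to 3.42 CPM. Around *Gata6* the single other gene was the divergent noncoding gene *1010001N08Rik*, which shares 58 exonic bases (1.82%) with it and ran from 23.0 to 34.8 CPM against 27.6 to 47.1 CPM (log2 fold change -0.36, SE 0.22, adjusted p = 0.666). No other gene covers exons of *Gata4*.

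The genes whose log2 CPM followed *Gata4* most closely over the 8 libraries were picked for that likeness, and their genotype difference follows from it. High Pearson coefficients among 16444 other genes belonged to *Jaml* (0.991), *Nceh1* (0.985), *Bahcc1* (0.978) and *Cyp4v3* (0.973). *Jaml*, which encodes a junctional adhesion molecule-like protein, had 14 (J_7075), 9.38 (J_7096), 113 (J_7135) and 10.3 CPM (J_7136) against 237 to 257 CPM in Mll1+/- libraries. *Nceh1*, a cholesterol ester hydrolase gene, had 20.9, 13.8, 38.7 and 16.0 CPM in the same order against 51.1 to 76.6 CPM. Both share with *Gata4* the intermediate level in library J_7135. The coefficients are over 8 points that share genotype and library. After centring on the genotype they were 0.96 for *Jaml* and 0.94 for *Nceh1*. These centred values come from the libraries used for the pick and include J_7135, the highest Mll1-/- library for both genes and for *Gata4*. They were not computed without that library, and nothing is read from them. *Gata6* ranked 2994 and *Gata5* 7856 by likeness to *Gata4* among the same 16444 genes.

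The 5 lowest coefficients were those of *Epn2* (-0.975), *Abcb1a* (-0.973), *Hnrnpa2b1* (-0.965), *Tstd1* (-0.964) and *Cplx2* (-0.963). These genes were picked by that coefficient, so their genotype difference follows from it too and no test of it is given. *Abcb1a*, a P-glycoprotein drug efflux pump, was at 37.3, 42.9, 16.5 and 44.6 CPM in J_7075, J_7096, J_7135 and J_7136 and at 12.2 to 17.2 CPM in Mll1+/- libraries. *Cplx2*, a complexin gene of vesicle fusion, was at 14.8 to 29.9 CPM against 6.68 to 8.18 CPM (log2 fold change 1.66). In both, library J_7135 lay nearest to the controls.

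**Figure D5:**
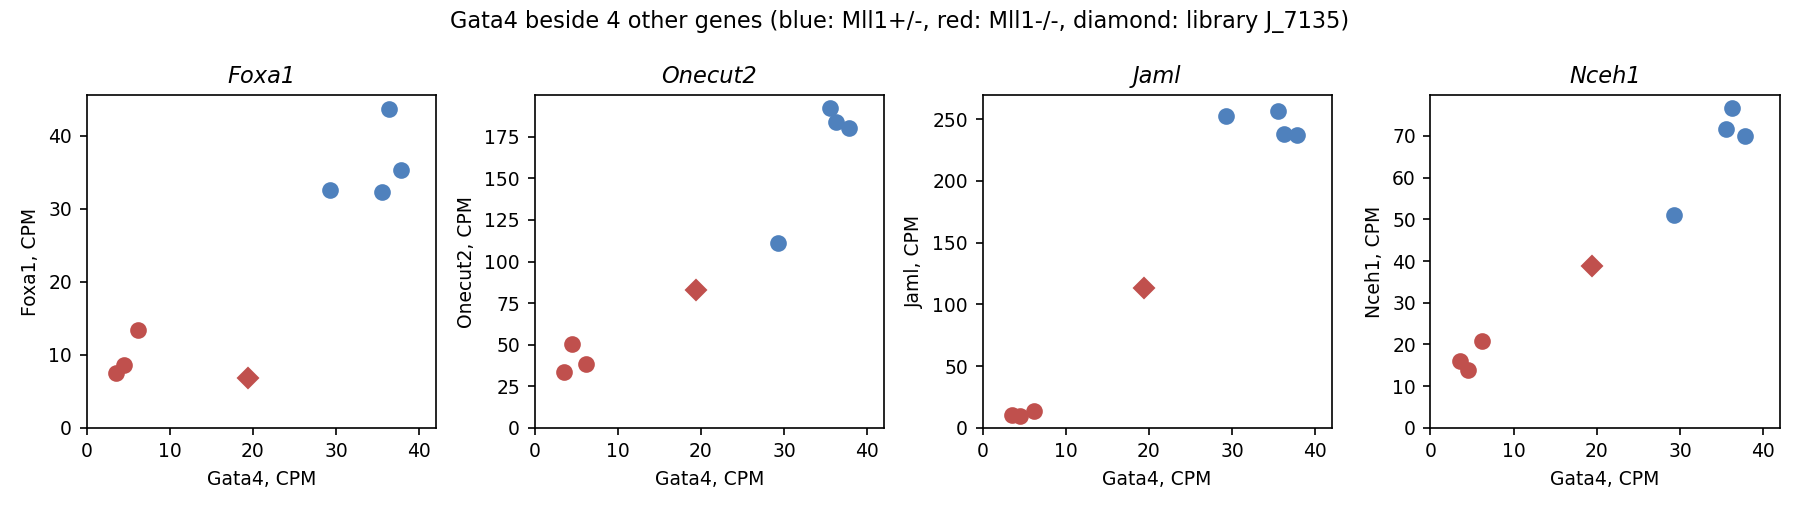
CPM of *Foxa1*, *Onecut2*, *Jaml* and *Nceh1* (y axes) against CPM of *Gata4* (x axis) in the 8 libraries, Mll1+/- in blue, Mll1-/- in red and library J_7135 as a diamond. Library J_7135 is intermediate for *Gata4*, *Onecut2* (83.0 CPM), *Jaml* (113 CPM) and *Nceh1* (38.7 CPM), but holds the lowest *Foxa1* level, 6.81 CPM.

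The labelled cell type was checked against its markers, and the markers that moved with *Gata4* are given here because their part in its difference was not tested. *Lgr5* itself was at 232 to 277 CPM in Mll1-/- and 215 to 308 CPM in Mll1+/- libraries. All 6 stem cell markers were tested, with 0 called by edgeR, 2 at an unadjusted p under 0.05 and 1 called by DESeq2 (over all tested genes 9.15% and, in DESeq2, 2.74%), and their summed level was 9087 to 15617 CPM against 20295 to 24037 CPM, which *Olfm4* set, at 8080 to 14429 CPM against 19281 to 22949 CPM. *Axin2*, the Wnt target, was at 185 to 267 CPM against 149 to 183 CPM. The 5 epithelial markers were also all tested, with 0 called by edgeR, 3 at an unadjusted p under 0.05 and 2 called by DESeq2 (against the same 9.15% and 2.74%), and their sum was 3177 to 3750 CPM against 2508 to 2746 CPM. Of 7 macrophage markers 2 were tested, *Cd68* (log2 fold change -0.75, SE 0.39) and *Lyz2* (-0.90, SE 0.60), and the sum of the 7 was 3.46 to 8.63 CPM against 7.54 to 16.4 CPM. *Ptprc*, a gene of all leukocytes that was listed with the macrophage markers, had 0 to 2 counts against 3 to 16 counts, the highest in library J_7079. It was under the filter and did not overlap between genotypes, as did 2.94% of all tested genes with Mll1-/- lower. *Csf1r* went the other way, with 4 to 12 against 2 to 5 counts. *C1qb* had 0 against 0 to 7 counts, and *Adgre1* and *C1qa* were at or near 0. Of 9 lymphocyte markers 0 were tested, with a sum of 0.108 to 2.77 CPM against 2.46 to 34.6 CPM, the upper end being *Ccl5* and *Gzma* in library J_7079. The 7 stromal markers summed to 2.03 to 6.06 CPM against 1.34 to 3.49 CPM and the 4 endothelial markers to 4.17 to 6.11 CPM against 4.22 to 5.94 CPM. The endothelial sum was mostly *Pecam1*, at 3.95 to 5.91 CPM against 4.15 to 5.86 CPM, while *Kdr* had 1 to 7 against 0 to 2 counts and *Cdh5* and *Plvap* were at or near 0.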

How the data were processed

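Sorted Lgr5-GFP+ cells of 8 mouse libraries, 4 per genotype, were sequenced by Smart-seq2 without molecular identifiers. According to the submitters' processing notes and the file header, the authors used bcl2fastq 2.19.1, aligned reads with GSNAP to mm10 and counted them with featureCounts 1.6.3 on Ensembl release 92 without strand and with a mapping quality of at least 1. The deposited raw table holds these counts per gene together with each gene's exonic length. The deposited normalised table, a signal of counts divided by a size factor per library (0.811 to 1.17, DESeq2 1.22.2 by the authors), served to find the 3 genes and no test. Groups came from the genotype in the sample characteristics, and the sample titles tied the count columns to the samples.

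Counts were filtered (filterByExpr, minimum 10 counts), scaled by TMM and fitted with the robust quasi-likelihood test of edgeR 4.0.16 in R 4.3.3, two-sided, with Benjamini-Hochberg adjustment over all tested genes and a threshold of 0.1. Alternatives used DESeq2 1.42.0 and limma 3.58.1. The 92 spike-in rows were left out. CPM used the TMM-scaled library size, and RPKM divide them by exonic length. The log2 level differences over all 8 libraries used a pseudocount of 0.1 RPKM. The log2 ratios given per genotype or per library used none, and the correlations used log2 CPM with a prior count of 2. Exact tests enumerated 256 sign flips or 576 orders within genotype. GENCODE vM21 and RefSeq sequences are of GRCm38, the build of mm10. Nothing in the sources used here ties the libraries to separate litters or days, so p-values measure the spread between these libraries, and counting floors cover counting error only.

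The members, lists and tests were chosen with earlier results of these data known. Named genes were the 3 members, *Kmt2a*, list members called or among the 3 smallest p of a list, GATA relatives and partners named in advance, genes within 200 kb, and the 5 most and least similar genes of each member. *Apob*, *Rbp2*, *Slc40a1*, *Mttp*, *Id1*, *Id2*, *Id3*, *Bmpr2*, *Acvr1*, *Bmpr1a*, *Smad5*, *Nkx2-5*, *Car1* and the single markers were added after their values were seen. Some genes under this rule are not reported here.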

Additional observations from a re-analysis of the deposited data

Results flagged for a closer look

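A set of 25 genes listed by hand was checked, which leaves out some genes whose library values are given and holds some picked for likeness to *Gata4*. In these genes each group of 4 was checked for a library whose gap to the nearest other, as a part of the group's range, exceeded Dixon's critical value for 4 values, a limit that chance passes in about 1 of 20 groups, and 50 groups were checked. *Gata4* in library J_7135 lay above the other Mll1-/- libraries with a gap of 0.833 of the range. *Jaml*, picked for its likeness to *Gata4*, was also high in library J_7135, with a gap of 0.956. *Onecut2* in library J_7134 lay under the other Mll1+/- libraries with a gap of 0.849. *Kmt2a* in library J_7100 lay above the other Mll1+/- libraries with a gap of 0.860.

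Counts on the synthetic spike-in transcripts, which no comparison uses, reached 36 in library J_7100 and no more than 3 in each of the others, so they passed the floor of 3 counts in 1 library.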

How the results depend on the processing

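The log2 fold change of *Gata4* was negative in all 17 settings, from -2.35 to -1.96 under the alternative scalings, tests, filters and covariates and from -2.86 to -1.79 with 1 library left out at a time, and it moved by more than the spread between replicates only without library J_7135 (-2.86). That of *Gata6* was negative in all 17 (-0.25 to -0.23 and -0.36 to -0.14), and that of *Gata5* was positive in 15 of 17 (0.12 to 0.27 and -0.05 to 0.23). The level differences kept their sign in every alternative, at -3.21 to -2.78 and 1.92 to 2.08 with 1 library left out. The centred correlation of *Gata4* and *Gata6* ran from -0.35 to 0.76 with 1 library left out and reversed without J_7135. Against 14 genes called between genotypes, upper-quartile factors gave 8, the DESeq2 Wald test 406, limma-voom 0, no filter 47, 10 counts in every library 34, library number as a term 0 and the *Xist*-over-Y covariate 0, and leaving out 1 library gave 0 to 45. The GATA partner call, 1, became 0 in limma-voom, with library number as a term, with the *Xist*-over-Y covariate, and was 0 to 1 with 1 library left out. Proximal genes called, 0, became 3 with DESeq2 (*Apoa1*, *Fabp1*, *Onecut2*), 1 with no filter, 1 with 10 counts in every library and 0 to 2 with 1 library left out. Negative proximal genes, 10 of 10, became 9 of 10 with library number as a term and with the *Xist*-over-Y covariate. They were also 9 of 10 without J_7079 or J_7139, and 10 of 11 without J_7096, J_7100 or J_7135. DESeq2 called 2 BMP genes (*Id4*, *Smad7*) and 1 gene outside the gut (*Sox17*), against 0 each. The cause of these changes was not tested. No paired analysis was possible because the library numbers are not shared between the genotypes.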

Other observations

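Among the genes most like *Gata5* over the 8 libraries were *Mctp2* (Pearson r 0.967), *Sipa1l2* (0.953), *AC107757.4* (0.948) and *Mtmr12* (0.945), and the least like were *Gm15921* (-0.973), *Nudt5* (-0.964), *Rpl24* (-0.962), *Mrpl41* (-0.952) and *Hist1h2bb* (-0.938). All of these overlapped between genotypes, and their fitted log2 fold changes ran from -0.37 for *Hist1h2bb* to 0.25 for *Sipa1l2*. Those most like *Gata6* were *Zfp36l1* (0.955), an RNA-binding protein gene of mRNA decay, *Twf1* (0.946), *Ankrd52* (0.942), *Zdhhc5* (0.942) and *Rpgrip1* (0.941), and those least like it *Top3a* (-0.991), *Gm9157* (-0.979), *Nfrkb* (-0.962), *Actg-ps1* (-0.951) and *Nelfcd* (-0.947). *Top3a*, a topoisomerase gene, was at 5.31 to 15.6 CPM in Mll1-/- and 3.02 to 12.7 CPM in Mll1+/- libraries. These coefficients are the extremes of 16444 genes over 8 points that share libraries and depth, and they carry no test.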
